A study of Schizosaccharomyces pombe with 8 samples.

Results

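Fission yeast (Schizosaccharomyces pombe) carrying ntr1-W597R, a temperature-sensitive allele of the spliceosome disassembly factor Ntr1, were compared with wild type after a short shift to high temperature. The readout was the unspliced share of each annotated intron, that is, unspliced reads divided by spliced plus unspliced reads. Introns were kept where each of the 3 libraries had at least 20 such reads, which left 2617 introns of 1421 genes out of 5144 annotated introns (14440 junctions were listed in all). The mutant was strain ts106C01, with genotype ntr1-W597R, and gave 1 library. Wild type was strain ED666 and gave 2 libraries, called WT replicate 1 and WT replicate 2. All cultures, wild type included, started from single colonies, grew in YPD at 25 °C to mid-log phase, and were moved to 37 °C for 15 minutes before harvest. Poly(A)-selected, strand-specific libraries were made from 1 µg of total RNA. The same series holds 1 library each of prp10-R379H, sap114-A152V, prp1-G705D, cwf22-G191D and prp22-V801M;G917R, treated the same way, and these 5 mutants are used below only to show where ntr1-W597R differed. All strains other than wild type are temperature-sensitive mutants, and each stands for 1 strain in 1 library.

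Introns are removed in a pair of chemical steps by the spliceosome, a machine of small nuclear RNAs and proteins that is built anew on each intron. After the exons are joined and the mRNA is released, the excised lariat intron is still held by the U2, U5 and U6 particles and the Prp19 complex. Ntr1 is a G-patch protein that, with Ntr2, brings the DEAH-box helicase Prp43 to this late complex and activates it, so that the lariat is freed and the particles can be used again. These roles were worked out mainly in budding yeast. Fission yeast introns are short, and many genes hold several of them.

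The introns at the ends of the ntr1-W597R range are shown first. The 4 below had the largest rises in unspliced share over wild type, counting 1 intron per gene with at least 50 reads in each library. Capitals mark the first 6 bases, the branch pentamer where one was found, and the last 3 bases. Sequences are from the RefSeq assembly ASM294v3, in which 5134 of the 5143 chromosomal introns of the table run from GT to AG at the deposited coordinates.
bsd1 intron 1 (chrI:3492399-3492466, minus strand): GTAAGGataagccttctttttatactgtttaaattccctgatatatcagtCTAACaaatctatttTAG
SPAPB1A10.08 intron 1 (chrI:1876887-1876958, plus strand): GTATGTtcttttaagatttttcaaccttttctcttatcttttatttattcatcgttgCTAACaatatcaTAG
SPBC17A3.05C intron 1 (chrII:1412609-1412662, minus strand): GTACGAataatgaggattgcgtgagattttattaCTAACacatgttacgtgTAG
vac7 intron 1 (chrII:3655705-3655779, plus strand): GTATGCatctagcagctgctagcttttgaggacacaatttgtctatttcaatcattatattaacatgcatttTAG

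The next 4 had the lowest unspliced shares in ntr1-W597R among introns with at least 50 reads in each library and under 50% unspliced in both wild-type libraries. Capitals are as above.
pfd3 intron 2 (chrI:601283-601326, minus strand): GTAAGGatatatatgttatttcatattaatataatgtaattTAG
ned8 intron 1 (chrII:2320191-2320238, minus strand): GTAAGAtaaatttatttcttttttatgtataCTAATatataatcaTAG
rpp202 intron 1 (chrII:2128056-2128101, minus strand): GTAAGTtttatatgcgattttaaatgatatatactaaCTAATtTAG
SPAC1687.21 intron 3 (chrI:942574-942614, plus strand): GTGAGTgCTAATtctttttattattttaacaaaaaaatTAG
All 8 lie in coding regions. The branch pentamer was the last match to CTNAN, with A or G at the first N and C or T at the second, on the intron's own strand within its last 60 bases, and 2026 of the 2617 tested introns (77.4%) held one. It is a match of letters and not a mapped branch site. In SPAC1687.21 its A lay 30 nt from the intron end, close to the 5′ site. In rpp202 it lay 5 nt from the end, and the match overlaps an earlier CTAAC. The 4 introns of the first set were 54 to 75 nt long and those of the second 41 to 48 nt, against a median of 62 nt over all tested introns (range 32 to 855 nt).

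Unspliced reads made up most of the reads at most introns in ntr1-W597R. The median unspliced share was 81.4% in ntr1-W597R, with the middle 50% of introns between 64.8% and 91.5%. It was 4.84% in WT replicate 1 and 5.88% in WT replicate 2. The mutant stood far from both wild-type libraries, whose medians averaged 5.36% ± 0.738 (SD, n = 2), a difference of 76.1 percentage points. The share was over 50% at 2315 introns (88.5%) in ntr1-W597R, at 127 in WT replicate 1 and at 137 in WT replicate 2. It was over 90% at 777 introns (29.7%) in the mutant, against 14 and 15. Only 31 introns were under 20% unspliced in the mutant, whereas 2181 and 2189 were in the wild-type libraries. Each tested intron had at least 1 unspliced read in ntr1-W597R, while 390 had none in WT replicate 1 and 169 had none in WT replicate 2.

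**Figure D1:**
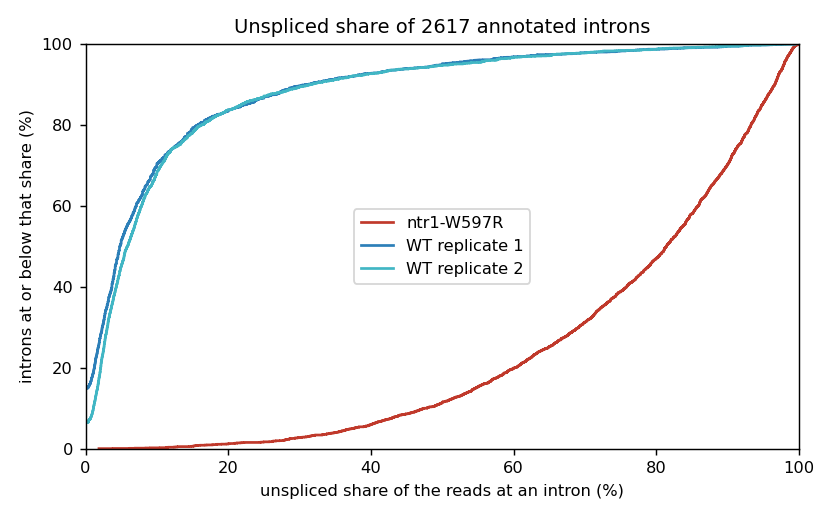
Cumulative percentage of the 2617 tested introns (y axis) at or below each unspliced share (x axis, %), with 1 line per library. The 2 wild-type lines lie together near the left edge, with medians of 4.84% and 5.88%, and the ntr1-W597R line rises late, with a median of 81.4%.

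The annotated junctions drew 1858792 reads in ntr1-W597R (403950 spliced and 1454842 unspliced), 420473 in WT replicate 1 and 846804 in WT replicate 2. The median tested intron had 205, 56 and 110 reads in that order, so single wild-type shares rest on few reads. Over the tested introns the 2 wild-type libraries differed in their reads per intron by more than sampling noise (chi-square 5984 on 2616 degrees of freedom), so they were counted as separate samples. The labels do not say whether the wild-type libraries came from separate cultures, so their spread may be technical. The ntr1 gene has no annotated intron, so the allele could not be checked in these counts.

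The share was above both wild-type libraries at 2611 of 2617 introns, below both at 2 and between them at 4. In edgeR's quasi-likelihood test of the odds of unspliced against spliced reads, with Benjamini-Hochberg adjustment over all tested introns, 2572 introns (98.3%) were higher in ntr1-W597R at an adjusted p under 0.05 and 0 were lower. At an unadjusted p under 0.05 the numbers were again 2572 and 0, and limma and DESeq2 gave 2556 and 2502 higher and 0 lower. The median log2 odds ratio was 6.09, and 90% of introns lay between 2.62 and 9.35. A plain rule of size, odds at least 4-fold above or below both wild-type libraries, was met by 2518 introns (96.2%) upward and by 0 downward. With 1 mutant library, these p-values assume that it would vary as the wild-type pair did. In simulated data of the same size, 2417 of the 2617 introns were left unchanged. There the test recovered 93.9% of 16-fold, 38.2% of 4-fold and 5.88% of 2-fold rises, and 48.5% of 16-fold falls. Small changes and falls were thus often missed in that setting. Its adjusted threshold was stricter than in the real data, where most introns were called, so these rates do not carry over directly.

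Of the 45 introns that were not called, 20 were already over 50% unspliced in wild type. Of all 132 tested introns over 50% in wild type, 112 were higher in ntr1-W597R by the same test, with a median of 96.5% in the mutant against 64.7% in wild type. These introns were long, with a median of 197.5 nt.

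Spliced reads were fewer and unspliced reads more when both were set against the reads of a class of unannotated junctions. The table lists 179 unannotated junctions shorter than 30 nt, which are below the length of the shortest tested intron. They drew 17457 reads in ntr1-W597R, 8557 in WT replicate 1 and 17214 in WT replicate 2. Per such read there were 23.1 spliced reads at annotated introns in the mutant against 43.4 and 43.03 in wild type, so the mutant stood at 53.6% of the wild-type mean. The same ratio was 60.1% without the 10 deepest of these junctions, which held 76.6% of their reads in the mutant. Unspliced reads per such read were 83.3 in the mutant against 5.78 and 6.17, a 14.0-fold difference. These are single values with no test, and whether the short junctions themselves were constant between libraries was not tested. Whether any of them lie inside annotated introns was not examined.

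The way the table was built bears on the values. An intron with no spliced read in a library was nearly always listed there with 0 spliced and 0 unspliced reads: in ntr1-W597R 441 introns were listed at 0 for both, only 37 had unspliced reads without a spliced read, and 330 had exactly 1 spliced read (147 of these with at least 20 unspliced reads). Of the 37, 25 were in genes of the repeated wtf family. Introns with no spliced read in the mutant therefore drop out. Among the 2642 introns with at least 20 reads in both wild-type libraries, 20 were listed at 0 in ntr1-W597R, and counting these as 100% unspliced, a choice made after seeing the data, gave a median of 81.6% against 4.88% and 5.96%.

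Unspliced reads also grew with intron length. Across 490 introns over 90% unspliced and with at least 50 reads in ntr1-W597R, in 212 genes, the unspliced count within a gene followed length plus 50 nt, which took up 75.5% of the within-gene variance. In the 63 genes with a pair of such introns at least 3-fold apart in length, the longer one had more unspliced reads in 62. The median length ratio of these pairs was 4.14 and the median ratio of their reads 2.83. Shares of introns that differ in length are thus not molar fractions on one scale. The length factor cancels from the odds ratio of mutant to wild type at 1 intron, but not from a difference or ratio of shares. With unspliced reads divided by (length + 50) / 50, called length-scaled below and chosen after seeing the data, the median share was 62.5% in ntr1-W597R and 2.04% and 2.39% in wild type.

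The deposited share rose with length from 76.4% for introns up to 45 nt (444 introns) to 93.5% for those over 200 nt (259 introns). In wild type the same classes went from 4% to 27.6% in replicate 1 and from 4.33% to 28.2% in replicate 2. The length-scaled medians of ntr1-W597R were 63.7%, 59.0%, 64.5%, 62.1%, 63.5% and 68.1% over the 6 length classes, so most of the rise was gone on that scale. The median log2 odds ratio over wild type, from which the length scaling cancels, was 6.13, 6.30, 6.41, 6.08, 5.90 and 5.49 from the shortest to the longest class.

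**Figure D2:**
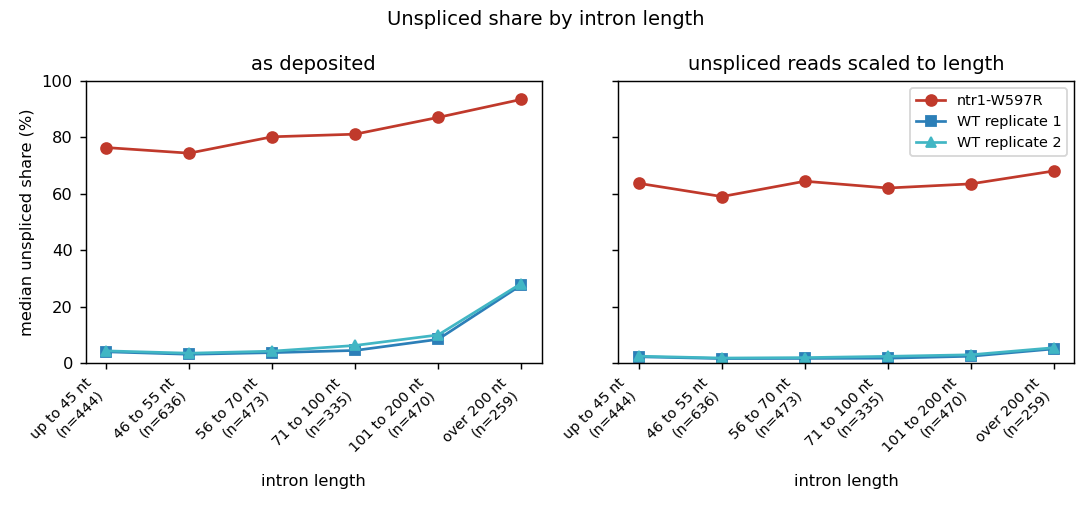
Median unspliced share (y axis, %) by intron length class (x axis, nt, with the number of introns) for ntr1-W597R and the 2 wild-type libraries, as deposited on the left and with unspliced reads scaled to length on the right. The mutant's median climbs from 76.4% to 93.5% on the left and stays between 59.0% and 68.1% on the right.

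The largest rises came at introns that wild-type cells spliced almost fully. Intron 1 of bsd1, which encodes a heavy metal homeostasis protein, had 563 unspliced and 18 spliced reads in ntr1-W597R, 1 and 87 in WT replicate 1, and 0 and 145 in WT replicate 2. Its share was 96.9% (95% Wilson interval 95.2 to 98.0) in the mutant and 0.568% ± 0.804 (SD, n = 2) in wild type, so the groups lay at opposite ends of the scale (log2 odds ratio 12.49 ± 0.66 SE, edgeR adjusted p = 8.8e-73). Wilson intervals here and below cover counting error only.

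Intron 1 of SPAPB1A10.08, an uncharacterized gene, kept 1 spliced read beside 586 unspliced reads in ntr1-W597R, a share of 99.8% (99.04 to 99.97). Wild type had 4 unspliced and 83 spliced reads in replicate 1 and 6 and 154 in replicate 2, or 4.17% ± 0.599 (SD, n = 2). Intron 1 of SPBC17A3.05C, which encodes a J domain protein of the co-chaperone type, had 437 unspliced and 15 spliced reads in the mutant, 1 and 81 in WT replicate 1, and 5 and 148 in WT replicate 2. Intron 1 of vac7, whose budding yeast counterpart regulates phosphoinositide synthesis at the vacuole, had 276 and 6 in the mutant, 2 and 48 in WT replicate 1, and 4 and 84 in WT replicate 2. In these 3 introns, as in bsd1, the mutant share was over 96% and no wild-type share reached 5%.

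The other introns among the 12 largest rises were those of the casein kinase 1 gene cki3 (intron 1, 94.8% in the mutant against 1.43% ± 0.463 in wild type, SD, n = 2), the vacuole protein gene vac8 (intron 3, 95.8% against 2.66% ± 3.76) and the galactosyltransferase gene gmh4 (intron 1, 93.1% against 0 of 61 and 0 of 90 reads). They continued with the transporter gene SPAC5D6.04 (intron 3, 93.0% against 0 of 50 and 0 of 57 reads), the protein kinase C gene pck1 (intron 1, 95.3% against 2.63% ± 2.18) and the centaurin gene cnt5 (intron 3, 97.7% against 5.05% ± 1.70). The last were SPAC1296.01C, for phosphoacetylglucosamine mutase (intron 4, 93.2% against 0.658% ± 0.930), and the Rab-binding protein gene yip3 (intron 1, 94.7% against 2.17% ± 0.615). For the introns with no unspliced wild-type read, a count of 0 allows up to 3 reads in each library. All 12 passed the edgeR test, as did 98.3% of all tested introns. They were picked for the size of their rise, so the gap between the groups and the test result add no support.

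At the other end, 296 tested introns (11.3%) were under 50% unspliced in the mutant. Intron 2 of pfd3, for a subunit of prefoldin, which hands unfolded actin and tubulin to the chaperonin, had 14 unspliced and 153 spliced reads in ntr1-W597R, 3 and 79 in WT replicate 1, and 8 and 158 in WT replicate 2. The mutant's share of 8.38% (5.06 to 13.6) was above both wild-type shares (3.66% and 4.82%), and its log2 odds ratio of 0.97 ± 0.74 SE did not pass (edgeR adjusted p = 0.194). Intron 1 of ned8, for the ubiquitin-like modifier of cullins, had 14 unspliced and 141 spliced reads in the mutant and 0 unspliced beside 66 and 139 spliced reads in wild type. Its share of 9.03% (5.46 to 14.6) was low, yet higher than in wild type (edgeR adjusted p = 6.0e-05).

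Intron 1 of rpp202, for the ribosomal stalk protein P2, was measured deeply, with 372 unspliced and 2581 spliced reads in the mutant, 1 and 999 in WT replicate 1, and 13 and 2658 in WT replicate 2. Its share was 12.6% (11.4 to 13.8) against 0.1% and 0.487%, so it too rose (log2 odds ratio 5.27 ± 0.51 SE, edgeR adjusted p = 5.5e-24). The other 5 of the 8 lowest shares were 12.9% in SPAC1687.21 (intron 3, a fructose-2,6-bisphosphatase gene), 12.9% in naa10 (intron 3, the catalytic subunit of the NatA acetyltransferase), 15.1% in SPAC688.16 (intron 1), 15.3% in SPBC3E7.07C (intron 4) and 16.7% in crd1 (intron 4, for cardiolipin synthase). All 5 were higher than in wild type by the same test, as were 98.3% of all tested introns.

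**Figure D3:**
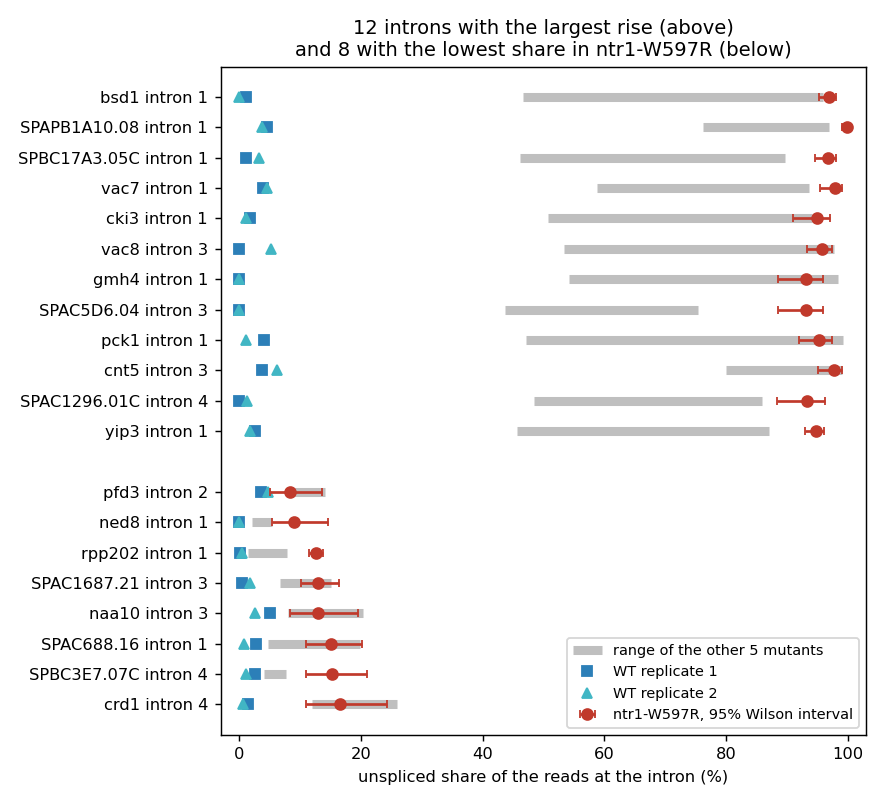
Unspliced share (x axis, %) of the 12 introns with the largest rises and the 8 with the lowest shares in ntr1-W597R, with the mutant's 95% Wilson interval, both wild-type libraries and, as grey bars, the range of the other 5 mutants. The 12 upper introns lie over 93% in ntr1-W597R and under 7% in wild type, and the 8 lower ones lie between 8.38% and 16.7% in ntr1-W597R.

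The smallest changes were at introns that were already unspliced in wild type. Intron 2 of prp10 (the SF3B1 subunit of the U2 particle) had 280 unspliced and 34 spliced reads in ntr1-W597R, 153 and 11 in WT replicate 1, and 208 and 26 in WT replicate 2. The shares of 89.2%, 93.3% and 88.9% overlapped (log2 odds ratio −0.26 ± 0.48 SE, edgeR adjusted p = 0.589). Its annotated junction is not the one wild-type cells used most, as described with the alternative junctions below. Intron 2 of dbp2, a 699 nt intron of an RNA helicase gene, was 99.3% unspliced in the mutant and 99.5% and 99.6% in wild type, with 5, 2 and 3 spliced reads, and did not pass either (edgeR adjusted p = 0.553). Intron 2 of SPBPB21E7.11, intron 3 of mug161 (a CwfJ family splicing factor) and intron 2 of mug65 (spore wall assembly) had edgeR adjusted p-values of 0.600, 0.223 and 0.221. All 3 were over 92% unspliced in every one of the 3 libraries.

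Introns of the same gene shared much of their level but not all of it. In the 150 genes with at least 3 introns of 50 or more reads in each library (541 introns), the share in ntr1-W597R had an SD of 19.5 points over all introns and 9.93 points within genes. The median range within a gene was 16.3 points (14.6 on the length-scaled values), and in 23 genes it was over 30 points.

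The widest range was in rps13, for a small-subunit ribosomal protein. Its introns were 58.6%, 81.1% and 31.7% unspliced in ntr1-W597R, against 1.29% ± 0.410, 61.3% ± 1.67 and 0.974% ± 0.193 (SD, n = 2) in wild type. The middle intron was thus high in both groups, and all 3 rose by the edgeR test, as did 98.3% of all tested introns. In mms2, for a ubiquitin-conjugating enzyme, the 4 introns stood at 53.4%, 73.2%, 39.6% and 24.9% in the mutant, although each was under 6% in both wild-type libraries. In pex11, for a peroxisome division protein, they stood at 26.2%, 71.2% and 33.4%, and in tom20, for a mitochondrial import receptor, at 88.6%, 44.9% and 51.0%. The high intron of these 2 genes was also the longest one and the highest in wild type (31.5% ± 2.32 and 78.1% ± 1.91, SD, n = 2). Length-scaled, the range was 48.6 points in rps13, 26.5 in mms2, 10.8 in pex11 and 26.0 in tom20. As deposited it was 49.4, 48.2, 45.1 and 43.7 points, so pex11 was not wide on the scaled values.

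The narrowest ranges were in grx1, for glutaredoxin, with 93.8%, 93.3% and 92.7%, and in the uncharacterized SPBC651.07, with 99.1%, 99.1% and 98.0%. The 3 grx1 introns were each under 9% in wild type, whereas those of SPBC651.07 were at 50.5% ± 5.14, 70.5% ± 1.52 and 25.4% ± 6.91 (SD, n = 2).

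In each of 12 groups of genes nearly all tested introns were called higher and none lower, and the groups differed in level. All groups were matched by symbol, so a group can hold genes outside its name. The group counts below are set against the 98.3% of all tested introns that were called higher, so a full count says nothing particular about a group. The median shares are set against 81.4% over all tested introns (62.5% length-scaled). In 10 of the 12 groups the median lay below that of all introns.

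The lowest levels were in genes for the ribosome and the respiratory chain. All 86 introns of 72 cytosolic ribosomal protein genes were higher than in wild type, and their median was 60.4% (33.3% length-scaled) in ntr1-W597R against 3.22% and 3.51%. Only 2 of them were over 90% unspliced and 29 were under 50%. Among those with at least 50 reads in each library the share ran from 12.6% in rpp202 to 90.3% in rpl3002, whose intron was also at 48% and 50.7% in wild type. The deepest, in rpl35, had 11436 unspliced and 5457 spliced reads, or 67.7% (67.0 to 68.4), against 4.15% and 5.58%. The list was matched by symbol and also holds rpp40, for an RNase P subunit.

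All 61 introns of 31 genes for the respiratory chain or the ATP synthase, assembly factors such as cox17 included, were higher. Their median was 56.6% (34.1% length-scaled) against 3.17% and 3.37%, and 25 were under 50%. Intron 1 of cox12, for a cytochrome c oxidase subunit, stood at 28% (24.8 to 31.4) against 2.95% ± 1.07 (SD, n = 2), and that of qcr9, for a cytochrome bc1 subunit, at 89.3% (87.4 to 90.9) against 10.9% ± 4.15. Ribosomal proteins of the mitochondrion stood nearer the general level, with all 32 introns of 22 genes higher and a median of 75.5% (57.9% length-scaled). Their range ran from 46.3% in mrp11 to 97.9% in mrps16.

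Genes of the splicing machinery itself were close to or below the general level. Of 76 introns in 34 genes for assembly factors, Sm and Lsm proteins and SR proteins, 75 were higher, with a median of 73.0% (57.5% length-scaled) against 3.85% and 4.07%. Among those with at least 50 reads in each library they ran from 39.01% in smg1, for a core Sm protein, to 98.4% in intron 2 of lsm2, for a U6 particle protein, which was at 74.5% ± 6.11 (SD, n = 2) in wild type. All 19 introns of 11 genes for the Prp19 complex, catalysis, release and disassembly were higher, with a median of 79.2% (66.8% length-scaled) against 3.23% and 6.02%. Intron 2 of cwf2, for an RNA-binding Prp19 complex protein, went from 3.20% ± 2.76 (SD, n = 2) to 94.7%. The 2 introns of prp19, for the ubiquitin ligase that names the complex, stood at 63.7% and 94.0% in the mutant against 0.355% ± 0.501 and 52.9% ± 5.65. The gene cwf10, for the U5 GTPase, is in both groups. Of Ntr1's closest partners, prp43 has no annotated intron, and none of the 3 introns of ntr2 or the 4 introns of dbr1, for the lariat debranching enzyme, had 20 reads in each library.

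The highest levels were in genes for the exosome and other RNA decay factors. All 30 introns of 16 such genes were higher, with a median of 91.2% (80.6% length-scaled) against 6.77% and 10.2% in wild type, and 16 of them (53.3%) were over 90%, against 29.7% of all tested introns. Intron 1 of upf3, for a nonsense-mediated decay factor, stood at 98.2% (95.4 to 99.3), that of pab2, for the nuclear poly(A)-binding protein, at 92.0% (89.0 to 94.2), and intron 2 of rrp17, for an rRNA exonuclease, at 45.8% (39.5 to 52.1). The list was matched by symbol and mixes nuclear factors with factors of cytoplasmic decay (upf3, dcp1 and ski7). All 74 introns of 36 genes for RNA polymerases and general transcription factors were higher, with a median of 85.7% (73.0% length-scaled) against 6.90% and 6.32%. Among them were intron 1 of sua7, for TFIIB, at 99.5%, and intron 2 of rpa43, for a polymerase I subunit, at 60.4%.

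The other 5 groups lay between. For proteasome and ubiquitin genes 78 of 80 introns were higher, with a median of 73.0%, and the deeply read intron 2 of ubc4, for a ubiquitin-conjugating enzyme, had 17281 unspliced and 3312 spliced reads (83.9%). For chaperones 34 of 35 were higher, with a median of 71.9%. The intron of aha1, for an activator of Hsp90, had 23980 unspliced and 361 spliced reads, or 98.5% against 38.9% ± 1.11 (SD, n = 2), and that of wos2, for the p23 co-chaperone, 29507 and 2290, or 92.8% against 17.1% ± 2.13. Translation factors had 37 of 37 introns higher with a median of 76.1%, vesicle traffic genes 126 of 126 with 78.6%, and tubulin, actin and cell cycle genes 62 of 62 with 79.1%.

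**Figure D4:**
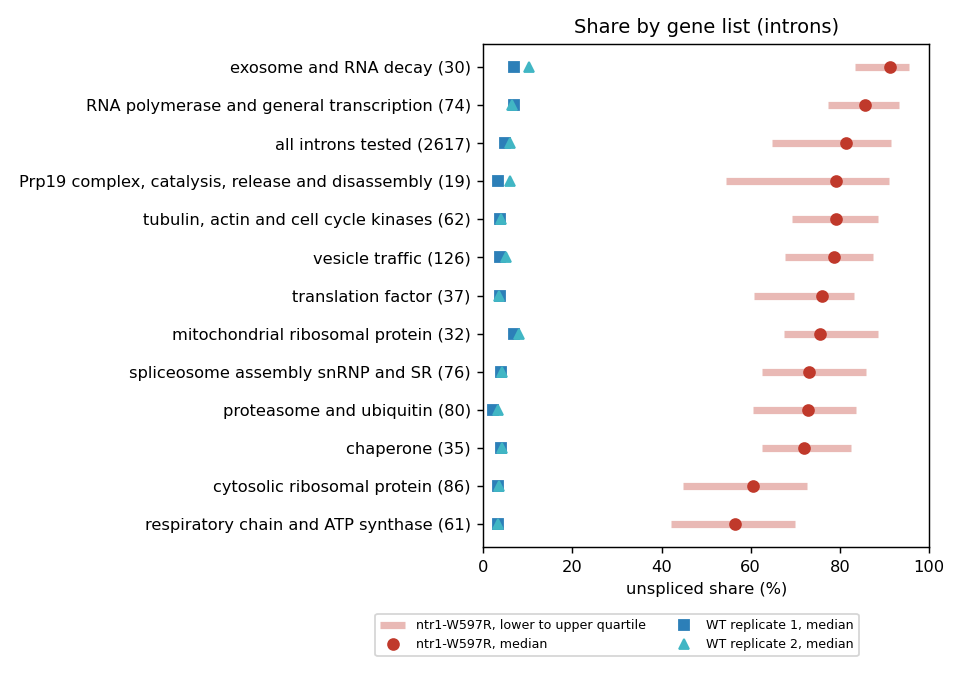
Median unspliced share (x axis, %) of the introns of each gene group (number of introns in brackets) in ntr1-W597R, with a bar from the lower to the upper quartile of its introns, and in the 2 wild-type libraries. The mutant medians run from 56.6% for the respiratory chain to 91.2% for exosome and RNA decay, and every wild-type median lies at or under 10.2%.

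With each library centred on its median intron, the group medians of ntr1-W597R lay within the range of the other 5 mutants in 8 of the 12 groups and outside it in 4, and no test of the difference was made. Of the 2514 single introns compared in the same way, ntr1-W597R was above all 5 at 405 and below all 5 at 539. A place outside the range was thus common and says little about a group. The median of the ribosomal protein introns was −1.48 log2 odds units in ntr1-W597R and between −1.81 and −1.33 in the other 5 mutants. That of the exosome and RNA decay introns was 1.13, and between 0.56 and 1.39 in the others. The mitochondrial ribosomal protein introns were at −0.48, below the −0.34 to 0.27 of the others, the respiratory chain introns at −1.71, below −1.65 to −1.33, and the spliceosome assembly introns at −0.63, below −0.62 to 0.06. The introns of the Prp19 complex group were at −0.22, above the −0.83 to −0.28 of the others.

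Single genes with several introns showed the same mixture. In tbp1, for the TATA-binding protein, introns 1 to 3 stood at 99.3%, 97.3% and 93.6% in ntr1-W597R against 33.0% ± 1.68, 8.05% ± 0.891 and 1.73% ± 0.566 (SD, n = 2) in wild type. In cdc2, for the cell cycle kinase, the 5 introns stood at 90.1%, 82.0%, 79.2%, 95.2% and 82.9%, and the first of them, in the 5′ UTR, was at 59.2% ± 2.34 in wild type. In nda3, for beta-tubulin, the 5 introns stood between 54.9% and 73.6%. Each of these 13 introns was higher in the mutant by the edgeR test, as were 98.3% of all tested introns.

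Other intron features also went with differences in level. The only intron of a gene had a median share of 86.0% (585 introns), first introns 81.1%, last introns 80.8% and internal introns 76.4%. Within introns of 46 to 60 nt the same order held, with 78.9%, 76.3%, 75.6% and 69.8%. Introns with up to 25% G and C had a median of 74.4% and those over 35% one of 84.9%, and within 46 to 60 nt the values were 71.2% and 76.7%. Introns in 5′ UTRs were at 93.7% (52 introns, 19.3% and 21.95% in wild type), against 81.1% in coding regions (2544 introns, 4.73% and 5.56%). Length-scaled, the medians were 83.0% in 5′ UTRs and 62.0% in coding regions, 57.7% and 66.8% from the lowest to the highest G and C class, and 58.0% and 66.7% for internal and only introns.

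Introns with different letters at the splice sites had similar levels. Introns that begin with GTAAGT had a median of 83.9% (742 introns), those with GTATGT 82% (587) and those with GTAAGA 77.8% (179). By branch pentamer the medians were 82.0% for CTAAC (1180 introns), 80.2% for CTAAT (639), 78.8% for CTGAC (146), 83.0% for CTGAT (61) and 82.0% where none was found (591). The range of these 5 medians was small beside the 26.7-point distance between the quartiles of all introns.

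Against the other 5 mutants, ntr1-W597R had the highest median share. On the 2514 introns with at least 20 reads in all 8 libraries it was 81.1% in ntr1-W597R, 78.5% in sap114-A152V and 67.4% in cwf22-G191D. It was 66.9% in prp22-V801M;G917R, 62.4% in prp10-R379H and 37.5% in prp1-G705D. Of these factors, Prp10 and Sap114 belong to the U2 particle, Prp1 to the tri-snRNP, Cwf22 to the active spliceosome, and Prp22 is the helicase that releases the mRNA. The share in ntr1-W597R was above all 5 at 1340 introns (53.3%) and below all 5 at 7. After each library was centred on its median intron, 0 introns (0%) differed between ntr1-W597R and the other 5 in edgeR in either direction, with a smallest adjusted p of 0.615. At an unadjusted p under 0.05 there were 113 higher and 47 lower introns, and limma and DESeq2 also gave 0 after adjustment. The spread in this test is that between the other 5 mutants, taken as 1 group although each is a different genotype in 1 library. Real differences between those genotypes therefore count as noise, and the 0 does not show that ntr1-W597R matched them at each intron. In simulated data of this size the test found 90.9% of 16-fold, 58.8% of 4-fold and 14.7% of 2-fold rises. That simulation gave all libraries the same baseline odds at an intron and left out the centring, so these rates do not carry over directly. Differences under 4-fold were often missed even there. In the real data larger ones were missed too, such as a log2 difference of 4.51 at intron 1 of SPAPB1A10.08.

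Across these introns the shares of ntr1-W597R ranked most like those of sap114-A152V (Spearman rho 0.903), then cwf22-G191D (0.881), prp10-R379H (0.875), prp22-V801M;G917R (0.861) and prp1-G705D (0.767). The points are introns that share their length, depth and base composition between libraries, so the values only describe the likeness.

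Named by size alone, the introns farthest above the other mutants after centring included intron 1 of SPAPB1A10.08 (99.8% against 76.2% to 96.9%), intron 1 of vac7 (97.9% against 58.7% to 93.6%) and intron 1 of hsf1, for the heat shock factor (99.6% against 82.9% to 96.2%). Intron 1 of mdm28, for a mitochondrial inner membrane protein, stood at 92.8% against 27.9% to 62.6%, and intron 1 of puf4, for an RNA-binding protein, at 95.1% against 33.7% to 77.9%. On these uncentred shares both lay above the range of the others, as did 53.3% of the introns compared. Intron 2 of SPCC330.03C, for a cytochrome b5 reductase, was at 99.4% against 53.5% to 97.2%. Farthest below were intron 2 of prp10 (89.2% against 94.3% to 96.4%), intron 3 of mug161 (97.1% against 96.9% to 98.5%) and intron 1 of cwf7, for a Prp19 complex protein (78.2% against 73.0% to 96.3%). They were followed by intron 2 of pfd3 (8.38% against 9.04% to 14.2%), intron 1 of srp54, for the signal recognition particle GTPase (89.4% against 88.2% to 94.0%), and intron 1 of etp1 (97.3% against 95.8% to 98.9%). Most of the introns farthest below were already unspliced to a large part in wild type. The wild-type means were 91.1% for prp10, 94.6% for mug161, 93.4% for etp1, 73.4% for srp54 and 43.4% for cwf7, but 4.24% for pfd3. Before centring, mug161, cwf7, srp54 and etp1 lay within the range of the others. Spliced reads in ntr1-W597R were few at mug161 (6), etp1 (5), SPAPB1A10.08 (1) and hsf1 (2). None of these 12 passed the adjusted test.

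Spliced reads were also listed at alternative junctions. The table pairs 243 alternative junctions with an annotated intron of the same gene at the depth used here (at least 5 alternative reads over the 3 libraries and at least 20 reads of both junctions in each). Their use is the alternative reads as a percentage of alternative plus annotated spliced reads. In edgeR, 20 (8.23%) were used more in ntr1-W597R and 9 (3.7%) less at an adjusted p under 0.05, and use in the mutant was above both wild-type libraries at 89 (36.6%). By kind, 13 of 97 alternative 5′ sites rose and 7 fell, 4 of 133 alternative 3′ sites rose and 2 fell, and 3 of 13 new pairings of annotated sites rose. Without the minimum on alternative reads, an alternative added after seeing the data, 9 rose and 3 fell. In simulated data of this size the test recovered 70% of 16-fold rises and 10% of 16-fold falls, and 0% of 2-fold and 4-fold changes, so most changes in use would be missed. In all, 11 of the 29 passed under each alternative analysis that tested them, and these are described below, together with the largest changes and the shift of 4 nt.

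A small set used a GT 4 nt downstream of the annotated 5′ site, inside the intron. The first 20 bases of the 4 such introns that rose are shown with the annotated GT and the GT 4 nt downstream in capitals.
taf1 intron 1 (chrI:838383-838402, plus strand): GTagGTattttgaaatctat
sum1 intron 1 (chrI:5359019-5359038, plus strand): GTagGTttaataaccgtcca
spi1 intron 2 (chrII:4386799-4386818, minus strand): GTaaGTgatatttaagcaaa
rpl4302 intron 1 (chrII:1513563-1513582, minus strand): GTatGTattagtcattggga
Of the tested introns, 1651 (63.1%) hold GT at these bases 5 and 6, so the letters alone are common. In taf1, for a subunit of the general factor TFIID, the shifted site had 14 reads beside 33 of the annotated junction in ntr1-W597R, 0 beside 61 in WT replicate 1 and 0 beside 103 in WT replicate 2. Use was 29.8% in the mutant, at least 16.6-fold higher against a floor of 3 reads over both wild-type libraries (edgeR adjusted p = 2.0e-06). In spi1, for the Ran GTPase, the reads were 24 beside 1354 in the mutant, 0 beside 1193 and 1 beside 2360 in wild type (edgeR adjusted p = 6.3e-08). In sum1, for an eIF3 subunit, they were 9 beside 215 against 0 beside 211 and 0 beside 356, at least 7.63-fold higher, and in rpl4302, for a large-subunit ribosomal protein, 23 beside 2539 against 2 beside 1171 and 3 beside 2795. The rises in sum1 and rpl4302 were not called when the minimum on alternative reads was dropped (adjusted p = 0.149 and 0.105). Of the 7 tested sites with this shift, 4 rose, 0 fell and 6 were above both wild-type libraries. Together they had 84 reads in ntr1-W597R, a use of 1.11%, against 0.155% (7 reads) and 0.165% (16 reads) in wild type, and from 0.153% to 0.577% in the other 5 mutants. The other 90 alternative 5′ sites showed no such shift in sum, with 0.762% in ntr1-W597R against 0.851% and 0.813%. The shift was singled out after its values were seen and has no test of its own.

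Pairings that leave out an exon rose in 3 genes. In tif313, for an eIF3 subunit, the 5′ site of intron 1 was joined to the 3′ site of intron 2 in 18 reads beside 137 in the mutant, against 0 beside 157 and 0 beside 245 in wild type (11.6%, at least 15.7-fold higher, edgeR adjusted p = 1.9e-05). The same kind of junction in ypt7, for a vacuolar Rab GTPase, had 12 reads beside 156, against 0 beside 147 and 0 beside 295 (7.14%, at least 10.6-fold higher, edgeR adjusted p = 6.4e-04). In ubc4 it had 42 reads in the mutant against 3 and 6 in wild type, a use of 1.21% against 0.113% and 0.116% (edgeR adjusted p = 7.2e-09). In the other 5 mutants use ran from 1.18% to 21.6% for tif313, from 0.709% to 1.79% for ypt7 and from 0.277% to 1.03% for ubc4.

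Other 5′ sites also rose. In snd302, for a component of a protein-targeting pathway to the endoplasmic reticulum, a site 55 nt inside intron 1 had 38 reads beside 163 in ntr1-W597R, 3 beside 515 in WT replicate 1 and 8 beside 908 in WT replicate 2. Its use of 18.9% was far above 0.579% and 0.873% (log2 ratio 4.89 ± 0.58 SE, edgeR adjusted p = 5.9e-13), and ran from 0.564% to 13.4% in the other 5 mutants. In ypt1, for the Rab GTPase of traffic to the Golgi, a site 122 nt inside intron 1 was used in 10.6% of spliced reads against 2.19% and 3.18% (edgeR adjusted p = 2.5e-09). The other mutants stood at 7.29% to 14.6%, around the value of ntr1-W597R. A site 129 nt inside intron 2 of ubc4 had 31 reads beside 3312 against 0 beside 2611 and 0 beside 4883, at least 23.2-fold higher. A site 5 nt upstream of intron 2 of spi1 was used in 10.4% against 4.02% and 3.48% (edgeR adjusted p = 6.4e-08).

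A 3′ site 27 nt downstream of intron 1 of cdc37, for an Hsp90 co-chaperone, had 6 reads beside 83 against 0 beside 209 and 0 beside 391, at least 13.6-fold higher, and was not called without the minimum on alternative reads (adjusted p = 0.105).

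Of the 9 junctions used less, 2 passed under every alternative that tested them. In prp10 intron 2 an AG that lies 19 nt upstream of the annotated 3′ end was the main site in wild type. Both AGs are in capitals here.
prp10 intron 2 (chrI:4336556-4336621, minus strand): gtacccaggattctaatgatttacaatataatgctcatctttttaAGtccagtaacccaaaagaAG
The upstream AG took 33 reads beside 11 in WT replicate 1 and 52 beside 26 in WT replicate 2, but 1 beside 34 in ntr1-W597R. Use was 75% and 66.7% in wild type and 2.86% in the mutant (log2 ratio −6.14 ± 0.98 SE, edgeR adjusted p = 6.8e-08), and from 6.67% to 52.6% in the other 5 mutants. With the spliced reads of both sites counted, a value computed after the junction was seen, the unspliced share of this intron was 77.7% and 72.7% in wild type and 88.9% in ntr1-W597R. On that count the mutant lay above both wild-type libraries, whereas on the annotated junction alone it lay between them. In rps1801, for a small-subunit ribosomal protein, a 5′ site 98 nt inside intron 1 had 11 reads beside 1039 and 31 beside 1916 in wild type and 0 beside 2097 in the mutant, at least 9.81-fold lower. Unannotated 5′ sites of rad25 (a 14-3-3 protein), btf3 (a nascent chain factor) and pex19 (peroxisome import) also had 0 reads in the mutant, against 8 and 21, 8 and 11, and 10 and 21 in wild type. These 3 were at least 2.98-fold, 2.84-fold and 1.79-fold lower against the floor, and none of them was called by DESeq2 (adjusted p = 0.0888, 0.0888 and 0.144).

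**Figure D5:**
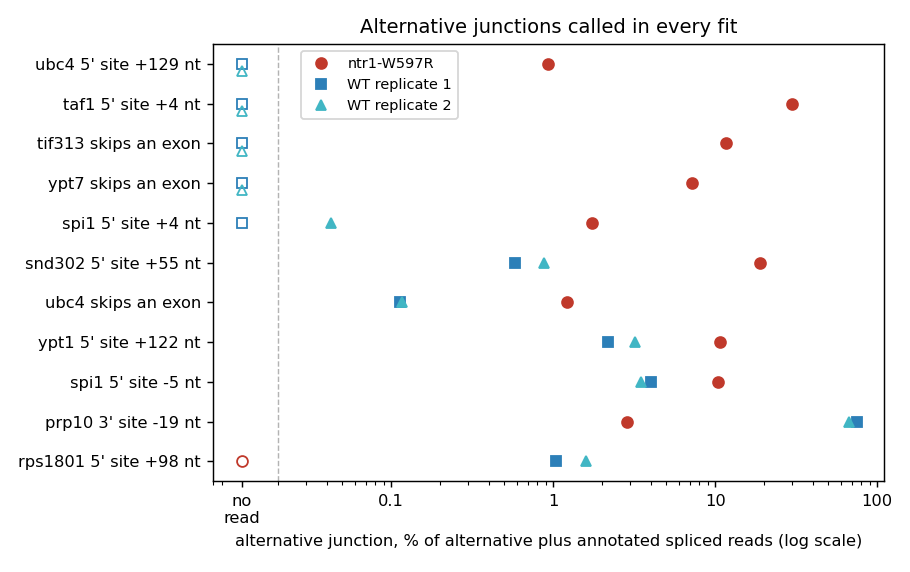
Use of the 11 alternative junctions that passed under every alternative analysis that tested them (x axis, % of alternative plus annotated spliced reads, log scale, with open symbols at the left for no read) in ntr1-W597R and the 2 wild-type libraries. In 9 of them the mutant lies to the right of both wild-type libraries, and in prp10 and rps1801 it lies to the left.

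Summed over the library, unannotated splicing was no larger a part of spliced reads for alternative 3′ or 5′ sites. Per 1000 annotated spliced reads there were 4.05 reads of alternative 3′ sites in ntr1-W597R against 4.57 and 4.21 in wild type, and 2.83 reads of alternative 5′ sites against 3.13 and 2.82. New pairings of annotated sites stood at 15.5 against 11.9 and 12.5, and unannotated introns of 30 nt or more at 69.6 against 50.4 and 49.9. Set against the unannotated junctions under 30 nt the last 2 classes turned the other way, with 0.358 against 0.514 and 0.539, and 1.61 against 2.19 and 2.15. These ratios have no test.

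Totals of spliced plus unspliced reads per gene changed at a minority of genes, and the totals moved with intron length. In edgeR, 465 of 2234 genes (20.8%) had higher totals in ntr1-W597R and 441 (19.7%) lower at an adjusted p under 0.05. DESeq2 called 8.55% higher and 6.36% lower, and on length-scaled reads limma called 6.09% and 7.97%. The median log2 ratio was −0.23 for genes whose longest intron was up to 60 nt, −0.13 for 61 to 100 nt, 0.14 from there to 200 nt and 0.46 beyond. On length-scaled reads these medians were 0.02, −0.02, 0.01 and −0.06. Of the genes called lower, 70 were listed at 0 in ntr1-W597R, which the table also gives for an intron with no spliced read. They include the 5 with the largest falls, SPAC922.03, SPCC576.17C, the U2 particle gene sap62, the microtubule nucleation gene mto2 and the cleavage and polyadenylation gene pcf11. The introns of sap62 drew 55 and 136 reads in wild type and 113 to 169 in the other 5 mutants, and those of pcf11 drew 44 and 72, and 97 to 149. SPAC922.03 was also listed at 0 in 4 of the other 5 mutants, SPCC576.17C in 3 and mto2 in 2.

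The 5 largest rises were at genes with few wild-type reads. The near-identical proteasome genes rpn501 and rpn502, between which reads can be split wrongly, had 1141 and 234 unspliced reads and no spliced read in ntr1-W597R, and rpn501 had 0 and 10 in wild type. SPBC1348.10C, for a phospholipase, had 26 reads against 0 and 1, and the mating pheromone gene mfm2 had 58 against 1 and 2. The ribosomal protein gene rpl1802, which has a close paralog, had 2232 unspliced and 72 spliced reads in the mutant against 14 and 29 in WT replicate 1 and 35 and 82 in WT replicate 2. The other 5 mutants had 249 to 574 reads at rpn501, 56 to 134 at rpn502, 26 to 89 at mfm2 and 556 to 1564 at rpl1802. In raw counts each of these was above both wild-type libraries, so such rises were not particular to ntr1-W597R. SPBC1348.10C had 1 to 16 reads in the other mutants.

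Over introns with a spliced read in each of the 3 libraries, 126 genes were higher and 98 lower both as deposited and length-scaled (of 2137 genes), a count made after seeing the data. Besides rpl1802, the RNase P and MRP subunit gene pop5 had 4284 unspliced and 27 spliced reads in the mutant, 66 and 38 in WT replicate 1, and 168 and 90 in WT replicate 2. The total rose, with a length-scaled log2 ratio of 2.88 (limma adjusted p = 2.0e-46), and the spliced reads alone did not (log2 ratio −0.24, adjusted p = 0.565). Falls were led by mvp1, for a sorting nexin with 8 such introns, which had 179 unspliced and 27 spliced reads in the mutant against 32 and 303, and 40 and 555, in wild type. Its length-scaled log2 ratio was −2.52 (limma adjusted p = 9.8e-45). The membrane protein gene tts1, which had 799 and 108 reads against 45 and 657, and 99 and 1159, fell by 2.25 on the same scale (limma adjusted p = 1.2e-47). In both genes the mutant's spliced reads were far under those of either wild-type library. These genes were named after their values were seen.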

How the data were processed

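Spliced and unspliced reads per junction were measured by RNA-seq in 8 libraries, of which ntr1-W597R (1) and wild type (2) were compared. The deposited values are raw read counts per junction, without normalization. The submitters' processing notes name STAR 2.5, bedtools 2.26 and the build ASM294v2, and the read length and the rule for counting unspliced reads are not recorded in these sources. No table column of another sample was present (0).

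Annotated introns with at least 20 spliced plus unspliced reads in each library were tested with edgeR 4.0.16 (R 4.3.3): glmQLFit on both counts, with 1 coefficient per library and 1 unspliced-over-spliced coefficient per group, and Benjamini-Hochberg adjustment at 0.05. No scaling between libraries enters this test. With 1 residual degree of freedom the test took a common spread for all introns. Gene totals used TMM scaling. limma 3.58.1, on log2 odds with a pseudocount of 0.5 or log2(CPM + 1), and DESeq2 1.42.0 were alternatives, as were other read minimums, library scalings and leaving out each library. The main edgeR tests (introns against wild type and against the other mutants, alternative junctions, and gene totals) were tried on simulated counts. The alternatives and the descriptive steps were not. Intervals are 95% Wilson intervals, and the floor is 3 counts.

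The table's introns were matched to RefSeq ASM294v3 (5077 of 5144 at both ends, 2605 of 2617 tested) with Python 3.11.15 for sequence, place and names. The members and gene lists were chosen with earlier results of these data known. Introns were named by rule, 1 per gene with at least 50 reads per library: the 12 largest rises, 8 lowest shares and 5 smallest changes, the 6 farthest above and below the other mutants, the ends and the deepest intron of each gene list, genes fixed by name, the 5 largest changes of gene totals each way, and in genes with 3 or more tested introns the 4 widest and 2 narrowest ranges. The rule also gave the 5 largest rises and falls of alternative junctions. Those that passed under every alternative were added after their values were seen. Gene groups were described by counts and medians only.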

Additional observations from a re-analysis of the deposited data

How the results depend on the processing

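The difference of 76.1 points between the ntr1-W597R median and wild type was 74.5 with a minimum of 50 reads, 66.0 over summed reads and 60.3 length-scaled, and 75.5 to 76.6 when 1 wild-type library was left out. Introns called higher numbered 1421 with a minimum of 50 reads and 4205 with none, and introns past the 4-fold rule 1393 and 4273, since fewer or more introns entered. Leaving out 1 wild-type library gave 2565 to 2578 higher and 0 to 1 lower by Fisher's exact test, and 2540 to 2544 by the 4-fold rule. Unspliced counts alone, which also follow the amount of RNA of a gene, gave 13 lower introns with either TMM or DESeq2 size factors. On these counts the log2 change turned negative at intron 2 of SPBPB21E7.11 (−2.35 with both), intron 1 of cdc2 (−0.34 with both), intron 3 of mug161 (−0.90 and −0.89), intron 2 of mug65 (−1.39 and −1.38), intron 1 of tom20 (−0.022 and −0.015) and intron 1 of vps38 (−0.21 and −0.20). Intron 2 of prp10 turned positive (0.047) without WT replicate 1.

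Against the other 5 mutants the count stayed at 0 under every alternative run, including without each library. Genes with higher totals, 20.8% of those tested, were 8.55% with DESeq2, 6.09% length-scaled and 6.88% length-scaled over introns with a spliced read, and those with lower totals, 19.7%, were 6.36%, 7.97% and 5.99%. With 1 wild-type library left out, gene totals have no residual degree of freedom and gave no test. On spliced reads alone pop5 (−0.24) and ggc1 (−0.30) turned negative. Without a minimum on alternative reads, 9 alternative junctions rose and 3 fell; 5 fell with a minimum of 50 reads and 2 with DESeq2. Ratios of junction classes to wild type, 0.924 (3′ sites), 0.952 (5′ sites), 1.27 (pairings), 1.39 and 1.87 (unannotated, from 30 nt and shorter), became 0.229, 0.236, 0.314, 0.343 and 0.462 per spliced plus unspliced read, a base that holds the mutant's unspliced reads. The 5′ site ratio was 0.905 to 1.00 when 1 wild-type library was left out, the 3′ site ratio 0.888 to 0.964, and the others 1.23 to 1.30, 1.38 to 1.39 and 1.86 to 1.87. Unannotated introns stood at 1.44 with at least 5 reads. The share of introns over 200 nt exceeded that of introns up to 45 nt by 17.1 points, and by 21.2 with a minimum of 50 reads, 11.7 with 1 intron per gene and 4.39 length-scaled. Of 1459 values of single introns, genes, junctions and gene group medians under an alternative, 1331 kept their direction and side of the threshold or, where there was no test, stayed within a set limit. For the gene group medians this limit was the SD of the 2 wild-type medians (0.738 points), and 35 values moved beyond it while 13 stayed within it. The cause of these and the other changes was not tested. No paired analysis was possible because the mutant has 1 library and its number does not pair it with a wild-type library.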

Other observations

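Introns outside the tested set showed high unspliced shares as well. Of the 2527 annotated introns left out, 1473 had at least 20 reads in ntr1-W597R, with a median share of 85.7%, while their summed share was 11.7% in wild type. Of these, 848 also had 20 reads in 1 of the wild-type libraries, with a median of 84.3% in the mutant. No read was listed at 72 introns in any of the 3 libraries. At least 200 reads in ntr1-W597R were reached by 15 of the introns left out. Intron 3 of cmk2, for a stress-activated protein kinase, had 407 unspliced and 5 spliced reads in the mutant, 4 and 11 in WT replicate 1, and 6 and 34 in WT replicate 2. Intron 1 of clr5, for a silencing factor, had 335 and 3 in the mutant against 5 and 3, and 29 and 11. Intron 1 of msi2, for a cleavage factor subunit, had 319 and 10 against 0 and 18, and 4 and 26. Intron 2 of emc6, for a membrane insertion complex, had 275 and 23 against 2 and 17, and 8 and 74. These 4 introns were between 92.3% and 99.1% unspliced in the mutant, and the wild-type counts are too low for the test used here. They were chosen after their values were seen.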
